A study of Mus musculus with 69 samples.

Results

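The genes described here are 10 members of the BCL-2 family, the proteins that decide whether the outer membrane of the mitochondrion stays intact or releases cytochrome c to the caspases. They were taken by symbol from the 23366 genes of the tables: the survival genes Bcl2, Bcl2l1, Mcl1, Bcl2a1b and Bcl2a1d, the pore-forming effectors Bax and Bak1, and the BH3-only death genes Bcl2l11, Bbc3 and Pmaip1. BCL-2, BCL-XL (from Bcl2l1), MCL-1 and A1 (from the Bcl2a1 genes) hold BAX and BAK in check. BIM (from Bcl2l11), PUMA (from Bbc3) and NOXA (from Pmaip1) bind the survival proteins and relieve that check, and PUMA and NOXA are known targets of p53. In T cells, BCL-2 and MCL-1 are known for keeping naive cells alive, BCL-XL and A1 rise on activation, and BIM is the main killer when cytokine or antigen runs out.

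Bulk RNA was measured in mouse naive CD4 T cells turned into type 1 regulatory (Tr1) cells, an IL-10 producing kind of T cell. All groups shared 72 h of culture with IL-27 (25 ng/ml) and with 1 ug/ml each of antibodies against CD3 and CD8, and 2000 cells went into each library. Of 69 libraries, 63 were used: 28 from control cells and the others from cells lacking a transcription factor. CD4 Cre(+/-), which acts in all T cells that pass through the CD4-positive stage, deleted floxed (f/f) alleles of Prdm1 (3 libraries), Maf (3), Prdm1 and Maf together (2 used, named the Prdm1/Maf DKO), Fosl2 (1 used), Hif1a (2), Nfil3 (2) and Stat3 (1). Actin Cre(+/-), active throughout the body, was used for Atf3 f/f (2) and dLck Cre(+/-), a driver of late T cell development, for Irf8 f/f (2). The groups named only as knockouts were Ahr (2), Batf (2), Ets1 (2), Irf1 (3), Irf4 (2), Irf9 (4) and Tbx21 (2). Controls were Cre- cells for Prdm1 and Maf (3), f/f cells without Cre for Atf3 (2), Fosl2 (2), Hif1a (2) and Nfil3 (3), and WT cells for Ahr (2), Ets1 (2), Irf4 (3), Irf9 (3) and Tbx21 (2). Batf, Irf1, Irf8 and Stat3 shared 4 WT libraries spread over batches, here called the linked controls. Mice were C57BL/6, except that the Irf9 KO cells and their controls came from BALB/c. The age of the mice is not in the sources used here. Nothing in the labels ties replicates to different mice or wells, so the p-values cover only library-to-library spread, which may be technical.

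Usable libraries held 743445 to 15221850 expected counts and 10434 to 13880 genes with a count. The 6 libraries left out were replicate 3 of the Prdm1/Maf DKO, with 9059 counts over 176 genes, replicate 1 of Fosl2 KO and all 4 of the Cebpb experiment. With that DKO library included, no call on the 10 genes in the Prdm1 and Maf experiment was kept. The ribosomal RNA gene Rn45s took 34.0 to 40.9% of counts in the 3 usable Fosl2 libraries, 43.7% in Irf8 KO replicate 1 and at most 10.5% elsewhere. The targeted transcript was lower past the threshold in the Prdm1, Maf, Prdm1/Maf, Batf, Stat3, Irf4 and Tbx21 knockouts. In the group labelled Atf3 KO, by contrast, Atf3 itself was higher, by 1.94 ± 0.19 (SE) on the log2 scale. The targets of the groups labelled Ahr, Ets1, Fosl2, Hif1a, Irf1, Irf8, Irf9 and Nfil3 KO did not pass the threshold, with log2 changes from -1.38 (Nfil3) to 0.87 (Ahr), so these groups are called by their labels. A gene total can stay high when a deleted exon stops the protein, and exons were not analysed here. Cd3e and Cd4 were found in all 63 libraries, at 150 CPM or more and 231 CPM or more, where CPM is the count scaled by the library total. Of the markers of other cells, Lyz2, Siglech, Pf4 and Ppbp were at 0 in all 63, while B cell and CD8 T or NK cell markers differed between some groups and are given beside results in those groups.

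A1 is the member that moved most, and mice carry several near-identical copies of it on chromosome 9, so the sequences of the measured copies are shown first. Bcl2a1b and Bcl2a1d each have 519 coding bases in the GENCODE transcripts and differ at 6 of them, an identity of 98.8%. The first 60 coding bases lie in 1 exon, at chr9:89199360-89199419 on the + strand for Bcl2a1b and chr9:88731660-88731719 on the - strand for Bcl2a1d (GRCm38), and capitals mark the 2 positions where the copies differ.
Bcl2a1b: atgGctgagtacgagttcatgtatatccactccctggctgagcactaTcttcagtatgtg
Bcl2a1d: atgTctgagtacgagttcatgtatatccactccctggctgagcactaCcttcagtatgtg
With so few differences, the split of reads between the copies rests on the estimate behind the expected counts, and each copy's value is uncertain on its own. The further copies Bcl2a1a and Bcl2a1c reached at most 9.55 and 17.8 expected counts in any usable library. Every A1 result below was therefore also computed with the copies summed to 1 gene, an alternative chosen after seeing the data.

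The 250 bases before the annotated start are shown because both copies fell in the libraries labelled Ets1 KO, and ETS factors bind around a GGAA core. They lie at chr9:89199023-89199272 on the + strand for Bcl2a1b and at chr9:88731851-88732100 on the - strand for Bcl2a1d (RefSeq, GRCm38.p6), a different build from the mm9 of the counts. Capitals mark GAGGAAGT, which starts 148 bases before the start in Bcl2a1b and 104 bases before it in Bcl2a1d. After the match the letters run nearly alike to the end of the Bcl2a1d window, and the Bcl2a1b window continues beyond it. The distances thus differ because the annotated starts do.
Bcl2a1b: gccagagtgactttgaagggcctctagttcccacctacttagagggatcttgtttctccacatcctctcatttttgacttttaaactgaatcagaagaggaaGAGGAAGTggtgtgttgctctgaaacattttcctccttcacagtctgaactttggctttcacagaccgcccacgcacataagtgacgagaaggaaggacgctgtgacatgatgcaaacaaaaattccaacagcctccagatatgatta
Bcl2a1d: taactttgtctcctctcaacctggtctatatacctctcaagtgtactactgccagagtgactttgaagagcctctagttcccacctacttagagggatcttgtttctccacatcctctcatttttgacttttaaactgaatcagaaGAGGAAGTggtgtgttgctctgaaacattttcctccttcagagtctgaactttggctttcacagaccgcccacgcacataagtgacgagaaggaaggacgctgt
GAGGAAGT was found, on either strand, in 801 of 32817 RefSeq windows of this length (2.44%). The windows of all A1 copies hold 1 match each, and so does that of Bak1. The A1 copies are near-identical, so their matches are not separate finds. Bak1 was not called in the Ets1 group (0.02 ± 0.11). The windows of Bcl2, Bcl2l1, Mcl1 and Bbc3, the other genes called in that group, hold 0 matches. The window of Pmaip1 is not reported here. The bare core GGAA, which GAGGAAGT contains, occurs in 93.4% of windows, with 6 matches for Bcl2a1b and 4 for Bcl2a1d. GTGAAAG, letters bound by BLIMP-1, the product of Prdm1, occurs in 3.57% of windows and once in each A1 copy. A motif of the NF-kB type, named for another transcription factor, was also searched and occurs in 4.11% of windows. It has 0 matches in the window of every A1 copy, and it was found in windows of Bbc3, Mcl1, Bcl2l1 and Bcl2l11. The motifs were chosen after the values were seen, and a match is a description of letters, not of binding.

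Across the 28 control libraries, the order of transcript level was read in TPM, which corrects for gene length. Bax led with a median of 236 TPM, followed by Bcl2a1b (156), Mcl1 (152), Bak1 (106), Bcl2l1 (97.6) and Bcl2a1d (74.9). Bcl2 stood at 57.8 TPM, and the death genes came last, with Bcl2l11 at 22.1, Bbc3 at 19.4 and Pmaip1 at 6.65. The survival genes and effectors thus lay above 82.9 to 96.1% of the 12594 genes with a median above 0, and Pmaip1 above 35.3%. Neighbours in this order overlapped in every case: Bcl2a1b ran from 75.1 to 270.0 TPM across control libraries and Mcl1 from 13.5 to 183.

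The order also changed with the experiment. Bak1 averaged 5.09 TPM in the Prdm1 and Maf controls and 191 in the BALB/c Irf9 controls. Mcl1 averaged 15.98 TPM in the Fosl2 controls and 27.5 in the Prdm1 and Maf controls, against 178.5 in the Ahr controls. Bbc3 ran from 1.69 TPM in the Prdm1 and Maf controls to 51.8 in the Ahr controls, and Bax from 124 in the Tbx21 controls to 518 in the Irf9 controls. Bcl2a1b and Pmaip1 were the reverse case, with their highest means in the Prdm1 and Maf controls (260.4 and 18.0 TPM). All of these are control cells with the same stated culture, so each knockout is compared below only with its own controls, and strain and experiment cannot be told apart for Irf9.

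**Figure D1:**
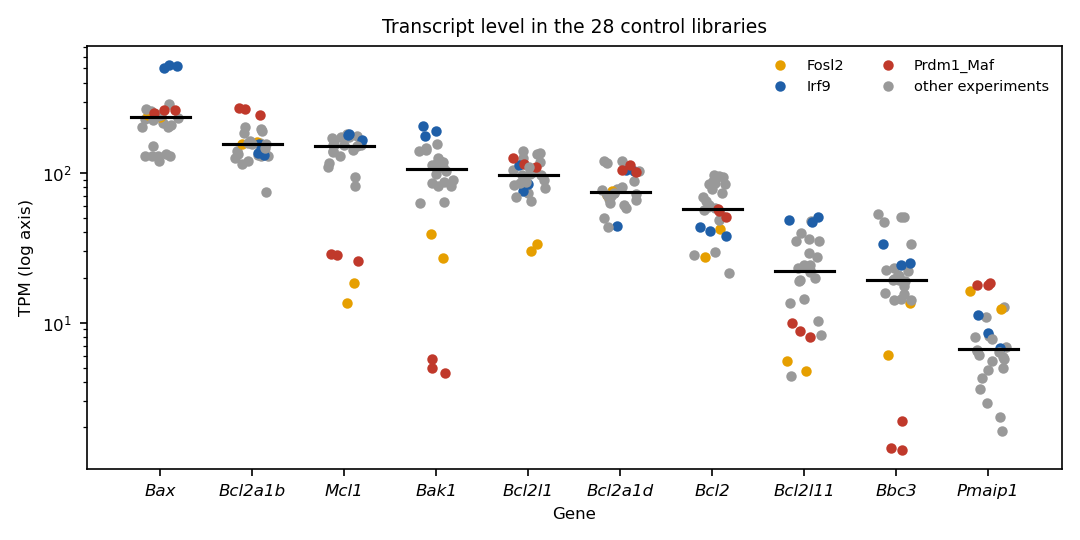
TPM of each gene (log axis) in the 28 control libraries, 1 point per library, with the median over libraries as a bar and 3 experiments in colour. The Prdm1 and Maf controls (red) are far below the rest for Bak1 and Bbc3 and, with the Fosl2 controls (orange), for Mcl1.

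Calls are edgeR quasi-likelihood tests with Benjamini-Hochberg adjusted p under 0.05 over all genes of a comparison, and log2 changes are given with their standard errors. In 16 comparisons of a knockout with its controls, 23 of 160 tests of the 10 genes were called (14.4%), 9 higher and 14 lower, beside 7.65% of 169678 tests over all genes. Several comparisons share control libraries, and the near-identical Bcl2a1b and Bcl2a1d count as separate genes, so these shares are descriptions. Both copies are among the genes called in the Ets1 group and in the Prdm1 knockout.
In the Ets1 group 6 of the 10 genes were called beside 20.4% of all genes, 1 higher (all genes 10%) and 5 lower (10.3%). The Irf4 knockout had 4 of 10 beside 28%, with 3 higher (14.8%) and 1 lower (13.2%), a share near its background. The Prdm1 knockout had 3 of 10 beside 12.1%, all lower (7.11%). Bcl2a1b was lower in each of these comparisons.
The Prdm1/Maf DKO had 3 of 10 genes called beside 19% of all genes, with 1 higher (8.2%) and 2 lower (10.8%). The Maf knockout had 2 of 10 beside 9.02%, both lower (5.09%). The group labelled Hif1a KO had 2 of 10 beside 5.55%, with Pmaip1 higher (all genes 1.36%) and Bcl2 lower (4.19%). The survival gene Bcl2l1 was lower in both the DKO and the Maf knockout.
A single gene of 10, higher in each case, was called in the group labelled Atf3 KO (Bax, beside 8.19% of all genes in either direction and 3.32% higher). The same holds for the group labelled Irf9 KO (Bcl2l1, beside 4.93% and 2.45%) and for the Tbx21 knockout (Pmaip1, beside 6.72% and 2.99%). No gene of the 10 was called by edgeR in the other comparisons, which had few calls over all genes: Batf 4.04%, Stat3 1.62%, Fosl2 0.632%, Irf1 0.479%, Ahr 0.381%, Irf8 0.0452% and Nfil3 0.0207%. At an unadjusted p under 0.05 the 10 genes gave 2 in Batf, 3 in Stat3, 1 in Fosl2, 2 in Irf1, 1 in Ahr, 1 in Irf8 and 0 in Nfil3. DESeq2 called 1 gene in Batf (Bcl2), 1 in Stat3 (Bcl2a1b) and 0 in the others. A transcript that falls in bulk RNA may mean fewer cells of a type or less RNA per cell, which cannot be told apart here. In 1 fit over all usable libraries, which gives every experiment the same estimate of spread, the calls kept were Bcl2a1b, Bcl2a1d, Mcl1 and Bbc3 in Ets1, Bcl2 in Irf4, Bcl2 and Pmaip1 in Hif1a, Pmaip1 in Tbx21, Bcl2a1b and Bcl2a1d in Prdm1 and Bcl2l1 in the DKO. The other calls of these 16 comparisons were lost in it.

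**Figure D2:**
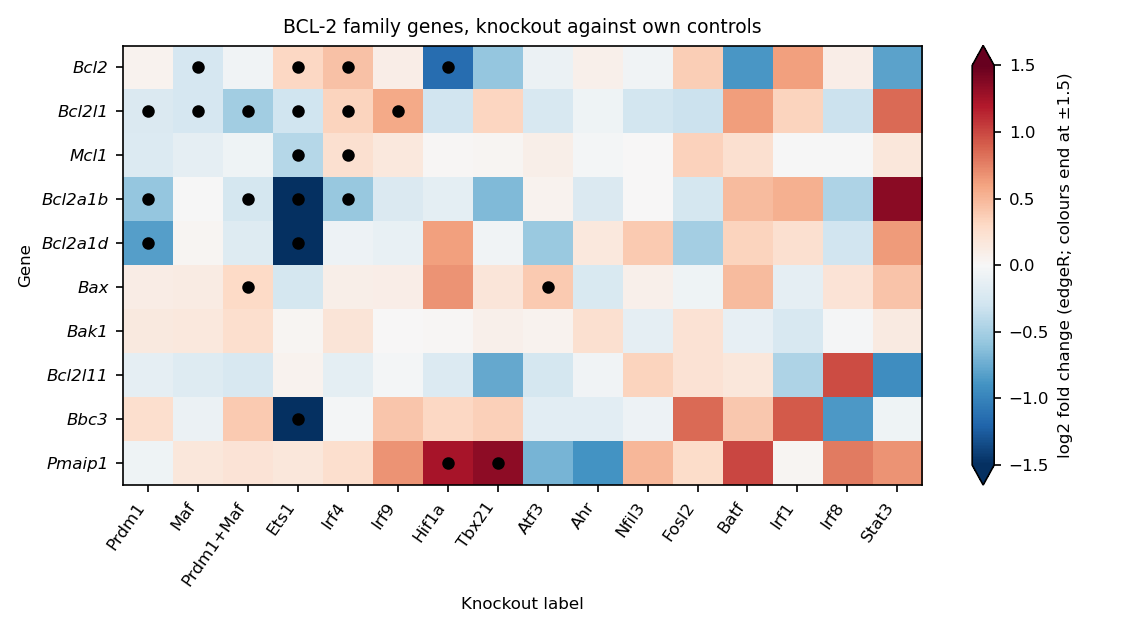
Log2 change of each gene (rows) in each knockout against its own controls (columns), red higher and blue lower, with a black dot where the edgeR adjusted p was under 0.05; colours end at 1.5, which Bcl2a1b (-2.87) and Bcl2a1d (-1.60) in Ets1 pass. Bcl2l11 and Bak1 have no dot in any of the 16 columns.

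**Figure D3:**
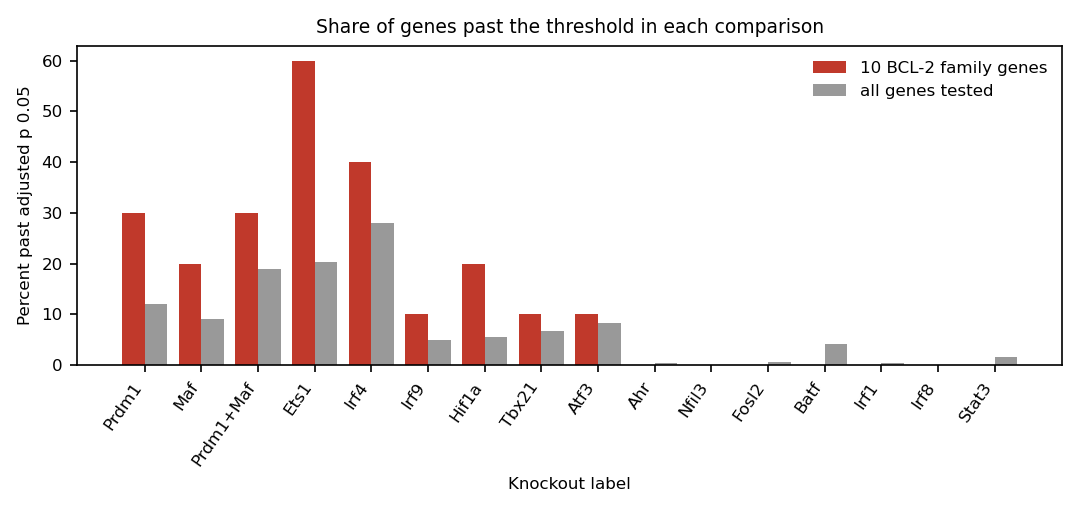
Percent of the 10 BCL-2 family genes (red) and of all genes tested (grey) past the threshold in each of the 16 comparisons. The red bar stands above the grey one in all 9 comparisons with a call, by the least in Atf3, and is 0 in the other 7. With 10 genes, a single call is enough to put it above the grey bar in Maf, Hif1a, Atf3, Irf9 and Tbx21. There the order of the bars was set once any gene was called.

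Bcl2a1b and Bcl2a1d, which encode the activation-induced survival protein A1, fell furthest in the libraries labelled Ets1 KO. Bcl2a1b stood at 64.6 and 62.6 CPM in the controls and at 7.75 and 9.34 CPM in the Ets1 KO libraries. Bcl2a1d stood at 36.9 and 35.6 CPM in the controls and at 9.92 and 13.5 CPM in the Ets1 KO libraries. All Ets1 KO values lay far below both controls. The log2 change was -2.87 ± 0.16 for Bcl2a1b (edgeR adjusted p = 9.16e-07) and -1.60 ± 0.18 for Bcl2a1d (edgeR adjusted p = 0.000157). With the copies summed it was -2.25 ± 0.14 (edgeR adjusted p = 2.24e-06).

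In the Prdm1 and Maf experiment, A1 fell in the Prdm1 knockout, and no A1 gene was called in the Maf knockout. Bcl2a1d stood at 56.1, 51.1 and 51.4 CPM in the Cre- controls and at 33.2, 29.7 and 30.5 CPM in the Prdm1 knockout. The Maf knockout had 48.1, 56.5 and 56.9 CPM and the Prdm1/Maf DKO 53.8 and 44.9 CPM. The Prdm1 knockout libraries thus lay below all others, which overlapped among themselves. Bcl2a1b was also lowest in the Prdm1 knockout, at 128, 117 and 124 CPM in controls and 89.2, 78.7 and 90.2 CPM in the Prdm1 knockout. Its Maf knockout values were 120.3, 121 and 126 CPM and its DKO values 111 and 108 CPM. For Bcl2a1b the DKO thus lay above the Prdm1 knockout and below every control, while for Bcl2a1d it overlapped the controls. Against controls, the Prdm1 knockout differed by -0.83 ± 0.09 for Bcl2a1d (edgeR adjusted p = 2.5e-06) and by -0.58 ± 0.06 for Bcl2a1b (edgeR adjusted p = 1.99e-06). The DKO differed by -0.26 ± 0.07 for Bcl2a1b (edgeR adjusted p = 0.0108) and by -0.19 ± 0.10 for Bcl2a1d (edgeR adjusted p = 0.181). With the copies summed the DKO differed by -0.23 ± 0.06 (edgeR adjusted p = 0.0159). The call on Bcl2a1b was lost without either DKO library (-0.28 and -0.25). The Maf knockout gave 0.03 ± 0.09 (edgeR adjusted p = 0.867) and 0.00 ± 0.06 (edgeR adjusted p = 0.987).

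Loss of Maf on top of Prdm1 left A1 higher than loss of Prdm1 alone. The DKO exceeded the Prdm1 knockout by 0.64 ± 0.10 for Bcl2a1d (edgeR adjusted p = 0.000683) and by 0.32 ± 0.07 for Bcl2a1b (edgeR adjusted p = 0.0119), with 3 of the 10 genes called in this comparison beside 2.32% of all genes, 2 higher (all genes 1.04%) and 1 lower (1.28%). The call on Bcl2a1b was lost without Prdm1 KO replicate 2 (0.27) or either DKO library (0.30 and 0.33). For the interaction, which asks whether the DKO departs from the sum of the single effects, Bcl2a1d alone of the 10 was called, beside 1.1% of all genes (0.557% higher). Its value was 0.60 ± 0.13 (edgeR adjusted p = 0.023), and Bcl2a1b gave 0.32 ± 0.09 (edgeR adjusted p = 0.109). Summed over copies the interaction was 0.41 ± 0.09 (edgeR adjusted p = 0.018). The interaction on Bcl2a1d was not called without any 1 of 4 libraries, at 0.55 without control replicate 1 (edgeR adjusted p = 0.0746), 0.58 without Prdm1 KO replicate 2 (0.0685), 0.53 without Maf KO replicate 1 (0.0688) and 0.47 without DKO replicate 1 (0.214). B cell markers summed over 8 genes stood at 21.1 to 27.3 CPM in the Prdm1 knockout, 24.5 to 26.8 CPM in the DKO, 11.8 to 16.4 CPM in the Maf knockout and 15.7 to 16.7 CPM in the controls. CD8 T and NK markers summed over 6 genes stood at 16.6 to 21.6 CPM in the Prdm1 knockout, above the 9.78 to 10.8 CPM of the controls, 9.85 to 12.5 CPM of the Maf knockout and 11.3 to 12.8 CPM of the DKO. The part of such cells in the A1 results was not tested. Maf itself was lower in the Prdm1 knockout, by -0.97 ± 0.10 on the log2 scale (edgeR adjusted p = 4.86e-06), so the cells lacking only Prdm1 also had less Maf transcript. Direct comparison of the single knockouts called 3 of the 10 genes, beside 8.2% of all genes: Bcl2a1b and Bcl2a1d lower in the Prdm1 knockout (all genes 4.29%) and Bcl2 higher (3.91%).

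**Figure D4:**
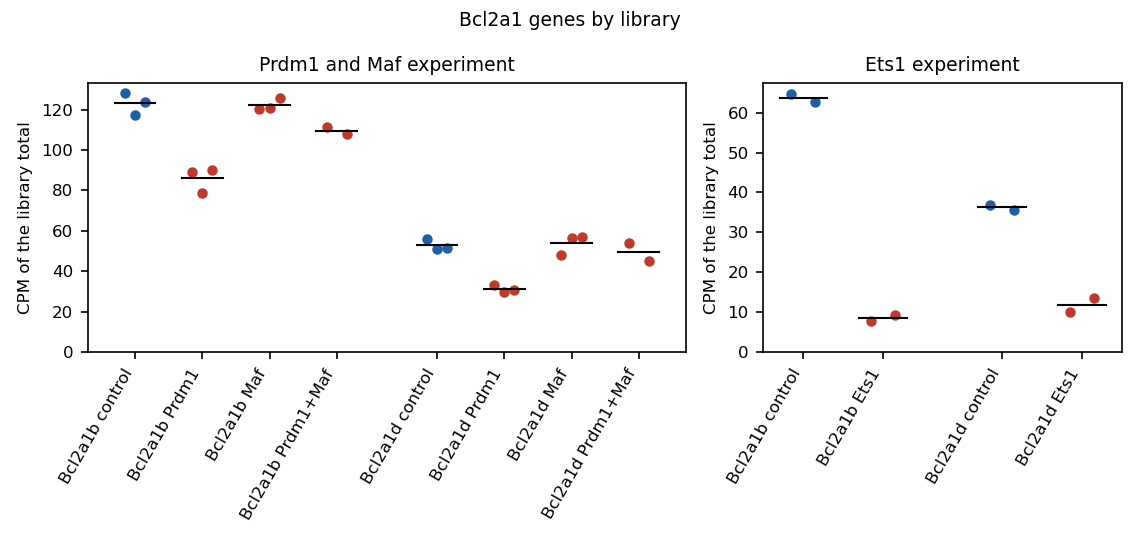
CPM of the library total for Bcl2a1b and Bcl2a1d, 1 point per library (blue controls, red knockouts, bar at the mean), in the Prdm1 and Maf experiment (left) and the Ets1 experiment (right). The 3 Prdm1 knockout libraries lie below the controls for both copies, the DKO libraries do not reach that low, and the Ets1 KO libraries lie between 7.75 and 13.5 CPM.

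In the Irf4 knockout Bcl2a1b was called lower and Bcl2a1d was not called (-0.07 ± 0.16). A difference between the copies was not tested. Bcl2a1b stood at 52.6, 46.2 and 57.2 CPM in WT controls and 39.0 and 29.7 CPM in the knockout. Bcl2a1d stood at 34.1, 27.6 and 31.7 CPM in controls and 28.8 and 28.6 CPM in the knockout, within the controls' range. Bcl2a1b changed by -0.56 ± 0.15 (edgeR adjusted p = 0.00532) and the summed copies by -0.34 ± 0.12 (edgeR adjusted p = 0.0401). The call on Bcl2a1b was lost with DESeq2 (adjusted p = 0.0818), without Irf4 KO replicate 2 (-0.38, edgeR adjusted p = 0.166) and without control replicate 3 (-0.44, edgeR adjusted p = 0.0564). The highest Bcl2a1b of all 63 libraries was 191.5 CPM in the single Stat3 knockout library, against 103.5 and 41.8 CPM in the controls of its batch. That change of 1.35 ± 0.38 was not called (edgeR adjusted p = 0.0951). The Batf knockout of the same batch had 94.4 CPM, between those controls.

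Bcl2, the founding survival gene, fell most in the libraries labelled Hif1a KO and rose in those labelled Ets1 KO and in the Irf4 knockout. Bcl2 stood at 233 and 267 CPM in the Hif1a f/f controls and at 127 and 120.4 CPM in the Hif1a KO libraries. The groups did not overlap, and the change was -1.15 ± 0.18 (edgeR adjusted p = 0.00164). Without control replicate 2 it was -1.05 (edgeR adjusted p = 0.0648). B cell markers summed over 8 genes stood at 108 to 170 CPM in the Hif1a KO libraries and 15.3 to 16.8 CPM in their controls, none of the 8 at 0 throughout a group, and T cell markers at 2118 to 2272 and 2203 to 2241 CPM. CD8 T and NK markers stood at 14.7 to 20.5 and 7.71 to 10.5 CPM. The part of B, CD8 T or NK cell RNA in the Hif1a results was not tested.

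In the Irf4 experiment Bcl2 stood at 298, 338 and 363 CPM in controls and at 443 and 430.5 CPM in the knockout, above every control. The change was 0.44 ± 0.09 (edgeR adjusted p = 0.000479) and was called in every alternative tried. Control replicates 1 and 2 of Irf4 differed by little more than counting noise and may be technical replicates; with them summed to 1 sample, all 4 calls in Irf4 held. In the Ets1 experiment Bcl2 stood at 284 and 268 CPM in controls and at 333 and 339.8 CPM in the Ets1 KO libraries, a change of 0.32 ± 0.07 (edgeR adjusted p = 0.0124). That call was lost without Ets1 KO replicate 1 (0.33, edgeR adjusted p = 0.0884) or replicate 2 (0.30, edgeR adjusted p = 0.122). Markers of CD8 T and NK cells, summed over 6 genes, stood at 52.2 to 56.7 CPM in the Irf4 knockout against 15.2 to 18.1 CPM in its controls. The same sum was 29.6 to 32.6 CPM in the Ets1 KO libraries against 10.6 to 15.7 CPM in theirs. Of the 6 markers, 3 were at 0 in all Irf4 KO libraries and in both Ets1 groups, and the NK marker Ncr1 was at 0 in 62 of the 63 libraries. T cell markers summed to 1704 to 1737 CPM in the Irf4 knockout and 2059 to 2160 CPM in its controls; the part of such cells in the Irf4 and Ets1 results was not tested.

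In the Maf knockout Bcl2 was lower by a small amount, at 229, 209 and 197 CPM against 259, 242 and 257 CPM in the controls. The change was -0.25 ± 0.05 (edgeR adjusted p = 0.00559), and without Maf KO replicate 3 it was -0.20 (edgeR adjusted p = 0.0502). The Prdm1 knockout had 261, 269 and 292 CPM and exceeded the Maf knockout by 0.30 ± 0.05 (edgeR adjusted p = 0.000672). The DKO, at 263 and 254 CPM, stood with the controls and above the Maf knockout by 0.19 ± 0.06 (edgeR adjusted p = 0.0452), in a comparison that called 3 of the 10 genes beside 9.86% of all genes, 1 higher (all genes 4.74%) and 2 lower (5.13%). That last call was lost with DESeq2 (adjusted p = 0.0559) and without any 1 of 4 of the 5 Maf and DKO libraries (0.14 to 0.20).

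Lower Bcl2 values in further groups were not called. The Batf knockout had 70.5 CPM against 153 CPM in the control of batch A and 68.2 CPM against 104 and 113 CPM in the controls of batch B, so it was lower in both batches. Its change was -0.87 ± 0.27 (edgeR adjusted p = 0.0926), and DESeq2 called it. The Stat3 knockout library had 65.2 CPM, the lowest of all 63, with -0.80 ± 0.37 (edgeR adjusted p = 0.358). CD8 T and NK markers summed over 6 genes stood at 44.1 to 62.4 CPM in the Batf knockout and 33.9 CPM in the Stat3 knockout, against 20.01 CPM in the control of batch A and 14.6 to 17.9 CPM in those of batch B. Of the 6 markers, 3 were at 0 in each of these groups, and their part in the Batf and Stat3 results was not tested. In the Tbx21 experiment Bcl2 stood at 318 and 256 CPM in the knockout against 422 and 371 CPM in WT controls, with -0.58 ± 0.16 (edgeR adjusted p = 0.0671), and DESeq2 called it. The Irf1 KO libraries spread from 175 to 519 CPM, and their change of 0.62 ± 0.26 was not called (edgeR adjusted p = 0.571).

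**Figure D5:**
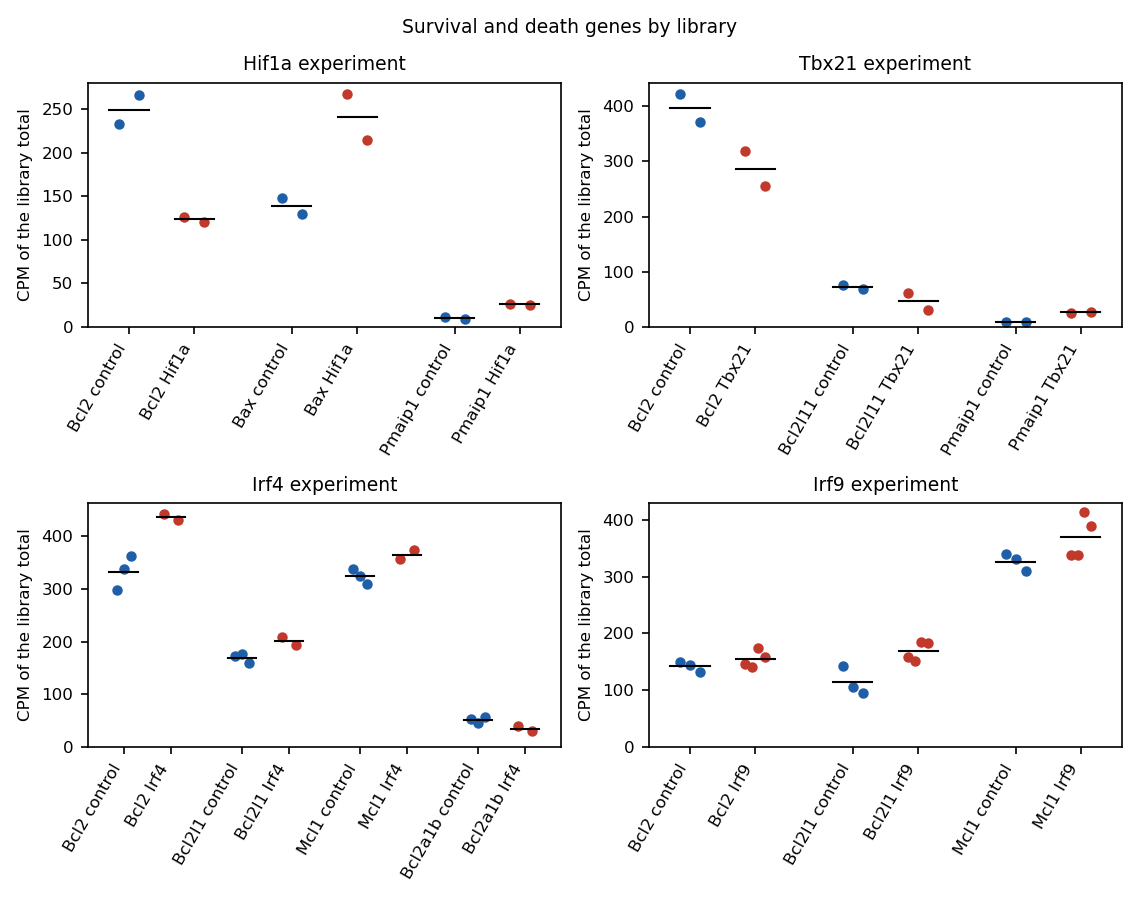
CPM of the library total for named survival and death genes in 4 experiments, 1 point per library (blue controls, red knockouts, bar at the mean). Bcl2 is lower and Bax and Pmaip1 higher in both Hif1a KO libraries, Pmaip1 is higher in both Tbx21 knockouts, Bcl2 is higher in both Irf4 knockouts, and Bcl2l1 is higher in all 4 Irf9 KO libraries; Bax in Hif1a and Bcl2 and Bcl2l11 in Tbx21 were not called.

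Bcl2l1, the gene of BCL-XL, was called in 6 of the 16 comparisons, 4 lower and 2 higher. In the Prdm1 and Maf experiment it stood at 189.6, 181 and 205 CPM in controls. Prdm1 knockout values were 162, 185 and 171 CPM, Maf knockout values 165, 153 and 165 CPM, and DKO values 146 and 137 CPM. The DKO lay below every library of the other groups, while the Prdm1 knockout overlapped the controls. Against controls the changes were -0.21 ± 0.06 for Prdm1 (edgeR adjusted p = 0.0219), -0.25 ± 0.06 for Maf (edgeR adjusted p = 0.0122) and -0.53 ± 0.07 for the DKO (edgeR adjusted p = 1.14e-05). The interaction was -0.07 ± 0.09 (edgeR adjusted p = 0.828), so a departure of the DKO from the sum of the single changes was not called. The DKO was also below each single knockout, by -0.31 ± 0.07 for Prdm1 (edgeR adjusted p = 0.0119) and -0.28 ± 0.07 for Maf (edgeR adjusted p = 0.012). The Prdm1 call was lost without any 1 of 4 libraries (-0.22 without control replicate 1, -0.17 without control replicate 3, -0.19 and -0.18 without Prdm1 KO replicates 1 and 3). The Maf call was lost without control replicate 3 or Maf KO replicate 2 (-0.20 and -0.22), and the DKO call against controls held with each library left out in turn. The DKO calls against the single knockouts were lost without either DKO library for Prdm1 (-0.35 and -0.28) and without DKO replicate 2 or Maf KO replicate 3 for Maf (-0.25 and -0.26), and for Prdm1 also without Prdm1 KO replicate 2 (-0.25).

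BCL-XL transcripts were higher in the BALB/c libraries labelled Irf9 KO. Bcl2l1 stood at 142.5, 105 and 95.1 CPM in the Irf9 controls and at 159, 151.5, 185 and 184 CPM in the Irf9 KO libraries, all above the controls. The change was 0.57 ± 0.11 (edgeR adjusted p = 0.000674). Some Irf9 libraries of a group differed by little more than counting noise, and with such pairs summed to 1 sample the change was 0.53 (edgeR adjusted p = 0.129). B cell markers summed over 8 genes stood at 0.753 to 9.21 CPM in the Irf9 KO libraries and 19.1 to 23.3 CPM in their controls, and their part in this result was not tested.

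In the Irf4 knockout Bcl2l1 rose as well, from 172.5, 176 and 160.3 CPM in controls to 208 and 195 CPM. The change was 0.33 ± 0.09 (edgeR adjusted p = 0.00671), lost with DESeq2 (adjusted p = 0.0571) and without Irf4 KO replicate 1 (0.26, edgeR adjusted p = 0.172). In the Ets1 experiment it stood at 157 and 141 CPM in controls and at 117.5 and 119.9 CPM in the Ets1 KO libraries, with -0.30 ± 0.09 (edgeR adjusted p = 0.0353). DESeq2 did not call it (adjusted p = 0.168), nor was it called without either Ets1 KO library or control replicate 1 (-0.28, -0.31 and -0.26). The Stat3 knockout library had the highest Bcl2l1 of all, 349 CPM against 184.5 and 171 CPM in its batch's controls, and the Batf knockout of that batch 334 CPM. In batch A the Batf knockout had 197 CPM against 157 CPM. These changes, 0.85 ± 0.26 for Stat3 (edgeR adjusted p = 0.124) and 0.63 ± 0.20 for Batf (edgeR adjusted p = 0.105), were not called.

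Mcl1, the gene of a short-lived survival protein, moved little. It fell in the Ets1 KO libraries, to 244 and 235 CPM from 326 and 332 CPM in controls, without overlap. That change was -0.43 ± 0.08 (edgeR adjusted p = 0.00298) and was called in every alternative tried. It rose in the Irf4 knockout to 357 and 375 CPM from 338, 326 and 309.5 CPM, a change of 0.24 ± 0.08 (edgeR adjusted p = 0.026). DESeq2 did not call that rise (adjusted p = 0.0962), nor was it called without either Irf4 KO library or control replicate 2 (0.27, 0.22 and 0.24). In the other comparisons Mcl1 was not called, with log2 changes from -0.21 in Prdm1 to 0.35 in Fosl2, the latter resting on 1 knockout library. The Prdm1 change was -0.21 ± 0.07 (edgeR adjusted p = 0.059). The Prdm1 knockout libraries, at 59.1 to 61.5 CPM, lay below every control, at 63.2 to 70.3 CPM.

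Of the effectors, Bax was called in the Prdm1/Maf DKO and in the group labelled Atf3 KO, and Bak1 in none of the comparisons. Bax, which forms the pore in the outer mitochondrial membrane, stood at 138, 145 and 142 CPM in the Prdm1 and Maf controls and at 177 and 192 CPM in the DKO. The DKO change was 0.29 ± 0.07 (edgeR adjusted p = 0.00313), and without DKO replicate 2 it was 0.22 (edgeR adjusted p = 0.0961). The single knockouts, at 156, 147.5 and 177 CPM for Prdm1 and 149.5, 161 and 151 CPM for Maf, were higher than each control and not called. In the libraries labelled Atf3 KO, Bax stood at 131 and 133 CPM against 99.4 and 101 CPM, a change of 0.39 ± 0.11 (edgeR adjusted p = 0.0247). DESeq2 did not call it (adjusted p = 0.461), nor was it called without any 1 of the 4 Atf3 libraries (0.37 to 0.41). B cell markers summed over 8 genes stood at 79.0 to 80.3 CPM in the Atf3 KO libraries against 10.7 to 15.5 CPM in controls, and CD8 T and NK markers at 15.2 to 17.3 against 91.4 to 133 CPM; their part was not tested. In the Hif1a KO libraries Bax stood at 267.5 and 215 CPM against 148 and 129.5 CPM, with 0.67 ± 0.19 (edgeR adjusted p = 0.0644). Bak1, the other effector, kept over the 16 comparisons within -0.24 (Irf1) and 0.26 (Prdm1/Maf DKO).

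Among the BH3-only genes, Pmaip1 rose in the Hif1a KO libraries and in the Tbx21 knockout, and Bbc3 fell in the Ets1 KO libraries. Pmaip1 stood at 11.02 and 9.25 CPM in the Hif1a controls and at 26.5 and 25.3 CPM in the Hif1a KO libraries, a change of 1.24 ± 0.27 (edgeR adjusted p = 0.0156). DESeq2 gave adjusted p = 0.0807, and without control replicate 2 the change was 1.09 (edgeR adjusted p = 0.211). In the Tbx21 experiment it stood at 9.47 and 9.66 CPM in controls and at 25.9 and 26.5 CPM in the knockout. The change was 1.34 ± 0.21 (edgeR adjusted p = 0.0127), and without control replicate 1 it was 1.33 (edgeR adjusted p = 0.0569). In both experiments the knockout libraries lay close together and well above the controls. B cell markers summed over 8 genes stood at 28.3 to 43.2 CPM in the Tbx21 knockout and 19.9 to 23.9 CPM in its controls, and T cell markers at 1577 to 1991 and 2074 to 2650 CPM. CD8 T and NK markers stood at 24.9 to 26.0 CPM in the knockout and 15.5 to 17.3 CPM in the controls. The part of other cells in the Tbx21 results was not tested.

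Bbc3, the gene of PUMA, stood at 30.5 and 24.9 CPM in the Ets1 controls and at 9.38 and 9.43 CPM in the Ets1 KO libraries. The change was -1.52 ± 0.19 (edgeR adjusted p = 0.000283) and was called in every alternative tried. The Ets1 KO libraries thus had less transcript of A1, BCL-XL and MCL-1 and also of PUMA, with Bcl2 in the opposite direction. Bcl2l11, the gene of BIM, was called in none of the 16 comparisons. Its log2 changes ran from -0.93 ± 0.57 in Stat3 to 0.98 ± 0.38 in Irf8, and the Tbx21 knockout, at 62.1 and 30.8 CPM against 76.4 and 69.3 CPM, gave -0.77 ± 0.27 (edgeR adjusted p = 0.117).

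Other death genes were read from 4 lists: 16 further BCL-2 family genes, 17 genes of the mitochondrial pathway and caspases, 11 of the death receptor pathway, and p53 with its targets (12). Among the further BCL-2 family genes, Bnip3 and Bnip3l, which act in the removal of mitochondria, were lower in 2 groups. These were the Hif1a KO libraries (-4.69 ± 0.26 and -2.20 ± 0.19) and the Batf knockout (-2.73 ± 0.27 and -1.99 ± 0.21). They were the 2 called genes of 8 tested in Hif1a and of 10 tested in Batf, beside 5.55% and 4.04% of all genes. Bnip3 was higher in the Irf4 knockout (1.09 ± 0.11) and in the Ets1 KO libraries (0.62 ± 0.08). In Irf4 the list had 2 genes higher and 1 lower of 9 tested, where 28% of all genes were called, the lower one being Bmf, a BH3-only gene, at -1.85 ± 0.43. Bcl2l14 was the 1 called gene of 12 tested in the Prdm1 knockout (0.71 ± 0.15) and in the DKO (0.86 ± 0.16). Of all genes, 12.1% were called in the Prdm1 knockout and 19% in the DKO.

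In the caspase list, Casp6, an executioner caspase, was lower in the Prdm1 (-0.63 ± 0.05), Maf (-0.70 ± 0.05) and DKO (-0.98 ± 0.06) cells. It was also lower in the Batf (-2.52 ± 0.27) and Stat3 (-2.71 ± 0.40) knockouts and in the libraries labelled Hif1a KO (-1.62 ± 0.24) and Atf3 KO (-0.61 ± 0.12). It was higher in those labelled Irf9 KO (0.71 ± 0.14) and Ets1 KO (0.36 ± 0.09). In the DKO the list had 3 genes higher and 4 lower of 17, where 8.2% of all genes were higher and 10.8% lower, among them Htra2 (0.45 ± 0.07) and Xiap, a caspase inhibitor (-0.36 ± 0.08).

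In the death receptor list, 4 of 11 genes were lower and 0 higher in the Ets1 KO libraries, beside 10.3% and 10% of all genes: Fas (-1.21 ± 0.16), Tnfrsf10b (-0.94 ± 0.18), Tnfrsf1a (-0.89 ± 0.16) and Cflar, the inhibitor of caspase-8 (-0.40 ± 0.11). The list's median change there was -0.34, beside 0.00 for all genes tested. In the Irf4 knockout 4 of 11 were higher and 1 lower, beside 14.8% and 13.2% of all genes, with the death ligands Fasl at 2.24 ± 0.20 and Tnfsf10 at 2.17 ± 0.17 and the receptor Fas at -0.55 ± 0.15. Fasl and Tnfsf10 were also higher in the Maf knockout (0.39 ± 0.09 and 0.56 ± 0.16). The list had 2 genes higher and 2 lower of 11 there, where 9.02% of all genes were called. In the DKO Fasl was higher (0.39 ± 0.09). The list had 1 gene higher and 4 lower of 11 in the DKO, beside 8.2% and 10.8% of all genes.

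The p53 list was read because Bbc3, Pmaip1 and Bax are p53 targets. In the Hif1a KO libraries 5 of 11 tested genes were higher and 0 lower, beside 1.36% and 4.19% of all genes: Phlda3 (1.29 ± 0.21), Zmat3 (1.02 ± 0.21), Ccng1 (0.97 ± 0.19), Aen (0.92 ± 0.20) and Trp53inp1 (0.73 ± 0.18). The list's median change there was 0.64, beside 0.01 over all genes. In the Batf knockout, where 4.04% of all genes were called and CD8 T and NK markers were higher, 4 of 12 were higher and 0 lower, led by Perp (1.94 ± 0.21), with a list median of 0.89 beside 0.03 over all genes. The Ets1 KO libraries showed the opposite, with 5 of 11 lower and 0 higher beside 10.3% and 10% of all genes, led by Phlda3 (-1.12 ± 0.17), and a list median of -0.545 beside 0.00. In the Irf4 knockout 7 of 11 were lower and 2 higher, beside 13.2% and 14.8% of all genes and with a list median of -0.46, with Perp at -1.91 ± 0.17 and the cell cycle inhibitor Cdkn1a at 1.16 ± 0.08. In the Tbx21 knockout, where Pmaip1 was called, 0 of 11 genes of the list were.

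Likeness between genes was described over the 63 libraries, each as its deviation from the mean of its own experiment or batch, on the log2(CPM + 1) scale. Among the 10 genes, Bcl2a1b and Bcl2a1d were most alike (Pearson r = 0.726), and they share sequence. Mcl1 and Bcl2a1d followed (0.587), and Bcl2 and Bax were most opposed (-0.468), then Bcl2 and Pmaip1 (-0.383). Of 6418 other genes, those most like Bcl2 were Tcf25 (0.797) and Ier3 (0.777), and most like Bcl2l1 Plk2 (0.746) and Phgdh (0.731). For Mcl1 they were Serp1 (0.81) and Yipf1 (0.771), and for Bax Atp5g1 (0.834) and Gpx1 (0.792). Bcl2a1b was most like Chchd10 (0.809), while Bcl2a1d was most like Psmd8 (0.734), which was also among the genes most like Bcl2a1b (0.765). The most alike genes of Bak1, Bcl2l11 and Bbc3 reached at most 0.634 (Ppp1r14b), 0.666 (Ctdsp2) and 0.69 (Hmg20b), and Pmaip1 was below the mean of 20 CPM required. Libraries of an experiment or batch can differ in depth and in Rn45s, which is part of the CPM total. In batch A, Rn45s took 43.7% of counts in Irf8 KO replicate 1 and 3.22% in the control. Such differences move many genes together, and their part in these values was not tested, so the values carry no p.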

How the data were processed

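Per the labels, libraries came from lysates of 2000 cells by a modified SMART-Seq2 protocol. Per the submitters' processing notes, TopHat, RSEM and the build mm9 were used; their versions are not stated there. The authors deposited, per gene and library, expected counts not scaled for depth, of which 22.4% of nonzero values are not whole, and TPM, scaled by gene length and to the same sum per library. TPM was used here only to compare levels between genes.

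Here, rounded expected counts went into edgeR 4.0.16 under R 4.3.3 (filterByExpr, TMM, estimateDisp, glmQLFit, quasi-likelihood F-test), each experiment alone. The Prdm1, Maf and Prdm1/Maf DKO groups shared 1 fit with a mean per group. Batf, Irf1, Irf8 and Stat3 shared 1 fit with genotype and batch as terms; titles give batches A and B, and batch C was set by exclusion. The 1 usable Fosl2 and Stat3 knockout libraries were assumed to vary like the other groups. P-values were adjusted by Benjamini-Hochberg across every gene in a comparison, with a threshold of 0.05. A standard error is the log2 change divided by the square root of F. CPM is over the library total, Rn45s included. The steps were tested on simulated data. Alternatives were DESeq2 1.42.0, its size factors, no filter, Rn45s left out, 1 fit over all libraries, a replicate block, no batch term, own batches only, left-out libraries added, close pairs summed, each library left out and the A1 copies summed. All called genes of the 10 are given with their values; other genes are named from lists, up to 6 per list and comparison. The members and lists were chosen with earlier results of these data known. Coding sequences are from GENCODE transcripts and promoters from RefSeq, both of GRCm38. A listed gene is not reported here by name.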

Additional observations from a re-analysis of the deposited data

Results flagged for a closer look

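Bcl2a1b in the group labelled Irf9 KO had 1 library far from the others: replicate 4 stood at 36.9 CPM and the other replicates at 51.0, 52.8 and 51.1 CPM. The value of replicate 4 rests on 42.1 expected counts. The 10 genes were each looked at in this group, the only one with 4 libraries. Chance marks about 1 in 20 per gene looked at, so a mark by chance somewhere among 10 genes is more frequent than 1 in 20.

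The change of Bcl2a1d on losing Prdm1 was called as different between cells with Maf alleles intact and cells with Maf deleted. That call rested on 2 DKO libraries and was lost without any 1 of 4 of the 11 libraries. Maf transcript was itself lower in the Prdm1 knockout (-0.97). The interaction was 0.60 on the log2 scale (edgeR adjusted p = 0.023), the Prdm1 knockout being below its controls by -0.83, while the Prdm1/Maf DKO differed from the Maf knockout by -0.22 ± 0.10 (edgeR adjusted p = 0.152).

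Libraries left out of every comparison held values above their controls. Replicate 3 of the Prdm1/Maf DKO had 76.8 expected counts of Bcl2l11, which is 8480 CPM without Rn45s (exact Poisson 95% interval 6690 to 10600), where the highest control had 34.9 CPM; each of the other 9 genes was at 0 there. Cebpb KO replicate 1 had 23 counts of Bcl2, or 513.3 CPM without Rn45s (325 to 770.1), with 165 CPM in the higher control. That control held only 6 counts of Bcl2 and the other control 2. Fosl2 KO replicate 1 had 56 counts of Mcl1, or 94.6 CPM without Rn45s (94.56; 71.4 to 123), with 43.8 CPM in the higher control. These intervals cover counting error only.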

How the results depend on the processing

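Over 33 calls on single genes and 404 alternatives, 306 kept direction and call, 95 kept direction only and 3 reversed; the calls on Bbc3, Bcl2a1b, Bcl2a1d and Mcl1 in Ets1 and on Bcl2 in Irf4 held in all. With replicate 3 of the Prdm1/Maf DKO included, all 7 comparisons of that experiment called 0 of the 10 genes, and Bax in the DKO (-0.27, edgeR adjusted p = 0.94), Bcl2a1b in the DKO against Prdm1 (-0.24, 0.95) and Bcl2 in the DKO against Maf (-0.38, 0.924) reversed, without a call; that library held 9059 counts.

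The number of the 10 genes called moved as follows. DESeq2 called 1 in Batf, 1 in Stat3, 0 in Atf3, 1 in Hif1a, 1 in Irf4 and 2 in Tbx21. Without the filter it was 1 in Batf, 1 in Stat3 and 3 in Tbx21, and with only a comparison's own batches 1 in Batf and 1 in Stat3. In 1 fit over all libraries it was 0 in Maf, 1 in the DKO, 0 in the DKO against Prdm1, 0 in the DKO against Maf, 0 in the interaction, 4 in Batf, 2 in Irf1, 1 in Irf8, 3 in Stat3, 0 in Atf3, 1 in Irf4, 0 in Irf9 and 4 in Tbx21. With close pairs summed it was 0 in Irf9. With replicate number as a block it was 4 in Tbx21 (Bcl2, Bcl2a1b, Bcl2l11 and Pmaip1) and within 1.5 times elsewhere; the labels do not say that numbers pair libraries, and same-numbered libraries correlated at 0.432 in Hif1a, 0.293 in Tbx21, -0.29 in Ets1 and -0.293 and -0.406 in Nfil3. The block fits lost Bcl2 (0.0592) and Bcl2l1 (0.111) in Ets1 and Bcl2 in the DKO against Maf (0.0536). The cause was not tested in any of these.

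Leaving out 1 library gave 0 to 1 genes in Atf3, 4 to 6 in Ets1, 0 to 4 in Hif1a, 2 to 4 in Irf4, 1 in Irf9, 1 to 2 in Maf, 2 to 3 in Prdm1, 1 to 3 in the DKO, 3 to 4 in Prdm1 against Maf, 1 to 3 in the DKO against Prdm1, 0 to 3 in the DKO against Maf, 0 to 1 in the interaction, 0 to 4 in Tbx21 and 0 in Ahr, Batf, Irf1, Irf8, Nfil3 and Stat3. Fosl2, with 1 knockout library, could not be fitted this way or with a block. Bbc3 and Bak1 in the Prdm1 and Maf experiment rest on few counts, so small changes there were not detectable at this depth.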
